A study of Homo sapiens with 6 samples.

Results

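The cytosolic ribosomal proteins are the protein part of the ribosome outside mitochondria, and were taken here as every gene whose platform symbol is RPL or RPS with a number and at most a final A, RPLP0 to RPLP2, or RPSA. The rule found 67 genes with 111 probes among the 20045 genes named on the array, 43 of the large subunit and 24 of the small. The human colorectal carcinoma line HCT116 received either 40 µM NU7441, which inhibits DNA-dependent protein kinase, or the vehicle, 0.1% (v/v) dimethyl sulfoxide (DMSO), for 48 h. Total RNA of 3 samples per group was read on Illumina bead arrays, 1 array per sample, and the cells in all 6 samples carried no engineered change named in the labels. Nothing in the labels tells whether the 3 samples came from separate cultures, so p-values cover only how far these samples scatter, and that scatter may be technical. The question was which transcripts differed in abundance after the inhibitor.

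On each array 35.1% to 37.6% of 47323 probes were detected, and precision is limited by how many arrays there were. Kept probes were those with a detection p below 0.05 on every vehicle array or on every NU7441 array. Of 7 epithelial marker genes fixed for this line, 6 had a kept probe, KRT8, KRT19 and EPCAM among them, and CLDN4 had none. Both KRT18 probes were dim, at mean log2 intensities of 5.27 and 5.12. No gene of the leukocyte and endothelial lists had a kept probe. Of 5 fibroblast markers only COL1A1 had one, near background at a mean log2 intensity of 4.56.

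A ribosome is built from a large and a small subunit, each a scaffold of ribosomal RNA with tightly bound proteins that are made in the cytoplasm, imported into the nucleolus and assembled there in near equal numbers. Ribosomal protein messenger RNAs are among the most abundant of growing cells and begin with a terminal oligopyrimidine tract (TOP), a C followed by a run of C and T, through which mTOR signalling and the protein LARP1 control their translation. Most ribosomal protein genes also have processed pseudogene copies, so a probe can meet more than 1 transcript. The RefSeq gene table names 34 pseudogenes of RPL29, 15 of RPS7, 6 of RPL14 and 95 of RPL23A. Whether the probes match such copies was not tested.

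The start regions of 4 genes whose kept probes all changed are shown because the tract that these messages share sits at the start of transcription. Each stretch runs 5′ to 3′ from 60 bases before the annotated start through the first 15 transcribed bases (RefSeq, GRCh38.p14). Capitals mark a match, a C followed by at least 4 bases of C or T. It is the match whose first C lies nearest to the start, and C or T bases before it stay in small letters. RPL29 (chr3:51995881-51995955, minus strand) and RPS7 (chr2:3575200-3575274, plus strand) were lower after NU7441, and RPL14 (chr3:40457279-40457353, plus strand) and RPL13A (chr19:49487548-49487622, plus strand) were higher.
RPL29: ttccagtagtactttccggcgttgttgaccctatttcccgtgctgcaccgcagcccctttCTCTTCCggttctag
RPS7: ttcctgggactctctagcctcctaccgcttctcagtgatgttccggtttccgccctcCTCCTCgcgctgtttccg
RPL14: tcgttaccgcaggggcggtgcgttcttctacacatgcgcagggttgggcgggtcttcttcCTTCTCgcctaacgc
RPL13A: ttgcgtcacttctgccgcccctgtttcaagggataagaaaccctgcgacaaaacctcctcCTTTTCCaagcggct

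In RPL29, RPL14 and RPL13A the marked match began at the annotated start, and in RPS7 it began 3 bases before it. In each of these genes C and T bases continued without a break upstream of the capitals, so the capitals do not show where the whole run begins. A start region was found for 57 of the 67 genes, and in 40 of them (70.2%) the transcribed strand began with such a run at the annotated start, against 4.07% of all 35116 start regions. With the C allowed up to 20 bases to either side, the shares were 96.5% and 51%. The run was present in genes of both directions and in most genes without a called probe, and a match is a description of the letters only.

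NU7441 left most ribosomal protein probes without a detected change and moved a minority, some of them by about 3-fold, in both directions. Of the 107 kept probes, which covered 66 genes, 12 were higher and 16 lower, and 79 did not pass the test. The called share was 26.2%, where 34.2% of all 14973 kept probes were called. For higher probes the shares were 11.2% of members and 16.7% of all, and for lower probes 15% and 17.5%. Changes are given as log2 (NU7441/vehicle) with the fit's standard error (SE, 3 arrays in each group), and p-values come from limma, adjusted by Benjamini-Hochberg across the kept probes. In bulk RNA, fewer cells of a kind and less RNA per cell cannot be told apart. The median change was -0.03 over the member probes and 0.01 over all kept probes. The gene without a kept probe was RPL10, a large subunit protein at the joining surface of the subunits, and 43 genes had kept probes of which none was called.

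Called and at least 2-fold different were 8 lower and 1 higher member probes, or 8.41%, against 2.3% of all kept probes in either direction. That 2.3% was not split into falls and rises. The RPL36A probe, among the 8 lower ones, was kept only through the vehicle arrays, where it is higher. The count also changed in the setting without background correction, which still added the offset of 16 to each signal. There the 4 probes of RPL29 and RPS7 stood between -0.99 and -0.94 and RPL36A at -0.50, all less than 2-fold. How much of this came from the offset was not tested. Among all called members, the lower probes lay between -0.39 and -1.61 and the higher between 0.31 and 1.64. By subunit, 9 probes were higher and 10 lower of 66 for the large subunit, and 3 were higher and 6 lower of 41 for the small subunit. Among genes mutated in Diamond-Blackfan anaemia, an inherited failure of red cell production caused by ribosomal protein loss, 2 probes were higher and 4 lower of 20 in 11 measured genes, or 30% called beside the 34.2% of all kept probes. All 28 called probes had arrays that did not overlap between the groups, as did 18 of the uncalled ones, where 47.1% of all kept probes did not overlap.

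RPL29 and RPS7 were the genes in which several probes fell together. RPL29, a large subunit protein also known as a heparin-binding protein, had 2 probes. The first (ILMN_1737517) read 7.75, 7.83 and 7.82 in log2 intensity on the vehicle arrays and 6.51, 6.39 and 5.84 on the NU7441 arrays. The second (ILMN_1771051) read 7.65, 7.91 and 7.81 with vehicle and 6.48, 6.16 and 6.10 with NU7441. Every vehicle array lay more than 1 log2 unit above every NU7441 array in both probes. The changes were -1.56 ± 0.15 (SE, adjusted p = 6.29e-06) and -1.54 ± 0.13 (SE, adjusted p = 1.68e-06), or 2.94-fold and 2.92-fold lower. In the deposited signals, before any correction, the first probe stood at 297.9, 279.8 and 306.0 with vehicle and at 131.8, 133.6 and 118.7 with NU7441.

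RPS7, a small subunit protein also known to bind the p53 ubiquitin ligase MDM2, showed a drop of like size in both of its probes. The brighter one (ILMN_1750722) read 7.69, 7.79 and 7.86 with vehicle and 6.39, 6.39 and 6.21 with NU7441, a change of -1.45 ± 0.11 (SE, adjusted p = 9.57e-07). The other (ILMN_2070072) read 7.71, 7.69 and 7.56 with vehicle and 6.21, 5.94 and 5.99 with NU7441, a change of -1.61 ± 0.12 (SE, adjusted p = 5.21e-07). The deposited signals of the second probe were 291.6, 259.8 and 265.0 with vehicle and 118.0, 113.1 and 126.2 with NU7441. The groups were far apart and the arrays of each group close together. Without background correction, but with the offset of 16 added, the 4 probes of RPL29 and RPS7 stood between -0.99 and -0.94. The direction was kept and the fold was smaller.

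RPL14, a large subunit protein, was the gene in which several probes rose together. Its brighter probe read 7.004, 6.82 and 6.92 with vehicle and 7.48, 7.55 and 7.90 with NU7441, a rise of 0.73 ± 0.13 (SE, adjusted p = 0.000659). Its other probe read 6.62, 6.51 and 6.79 with vehicle and 7.04, 6.93 and 7.27 with NU7441, a rise of 0.44 ± 0.13 (SE, adjusted p = 0.0153). In both, NU7441 replicate 3 was the highest array. The second probe no longer passed without vehicle replicate 1 or 2, with 75th percentile scaling over all probes, or with no detection filter.

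Another 7 genes were represented by 1 kept probe that changed. Lower were RPL36A and RPS21, of the large and the small subunit. RPS21 read 9.51, 9.19 and 9.24 with vehicle and 8.76, 8.55 and 8.34 with NU7441, a change of -0.77 ± 0.13 (SE, adjusted p = 0.000581). RPL36A stood at -1.32 ± 0.16 (SE, adjusted p = 4.41e-05), with NU7441 arrays at 5.08, 4.97 and 4.34 against vehicle arrays at 6.01, 6.13 and 6.19. It was detected on 3 vehicle arrays and 2 of 3 NU7441 arrays, so the lowest value lies at the background. The probe was thus kept only through vehicle, the group where it is higher, and its fall is not counted as support. Without background correction the change was -0.50. The gene's other probe was not kept, with means of 4.35 with vehicle and 4.23 with NU7441.

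Higher were RPL13A, RPL23, RPL23A, RPL37 and RPS28. RPL13A, a large subunit protein that also takes part in silencing inflammatory messages after release from the ribosome, read 10.27, 10.53 and 10.38 with vehicle and 11.05, 10.84 and 11.02 with NU7441. Its rise was 0.58 ± 0.12 (SE, adjusted p = 0.00198). RPS28, a small subunit protein at the messenger RNA exit, was at 0.62 ± 0.15 (SE, adjusted p = 0.00564), and RPL23A, which helps form the docking site at the peptide exit, at 0.54 ± 0.15 (SE, adjusted p = 0.0111). RPL23, another MDM2-binding protein, was at 0.51 and RPL37 at 0.42. RPL23 lost its call without vehicle replicate 2, and RPL23A lost it with 75th percentile scaling over all probes or when vehicle replicate 3 was left out. With no detection filter RPL23, RPL23A, RPL37 and RPS28 did not pass (adjusted p = 0.0508, 0.0824, 0.0982 and 0.0575 by limma). RPL37 lost it without vehicle replicate 1 or 2 or NU7441 replicate 3, without background correction, in the submitters' table and with 75th percentile scaling over all probes.

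**Figure D1:**
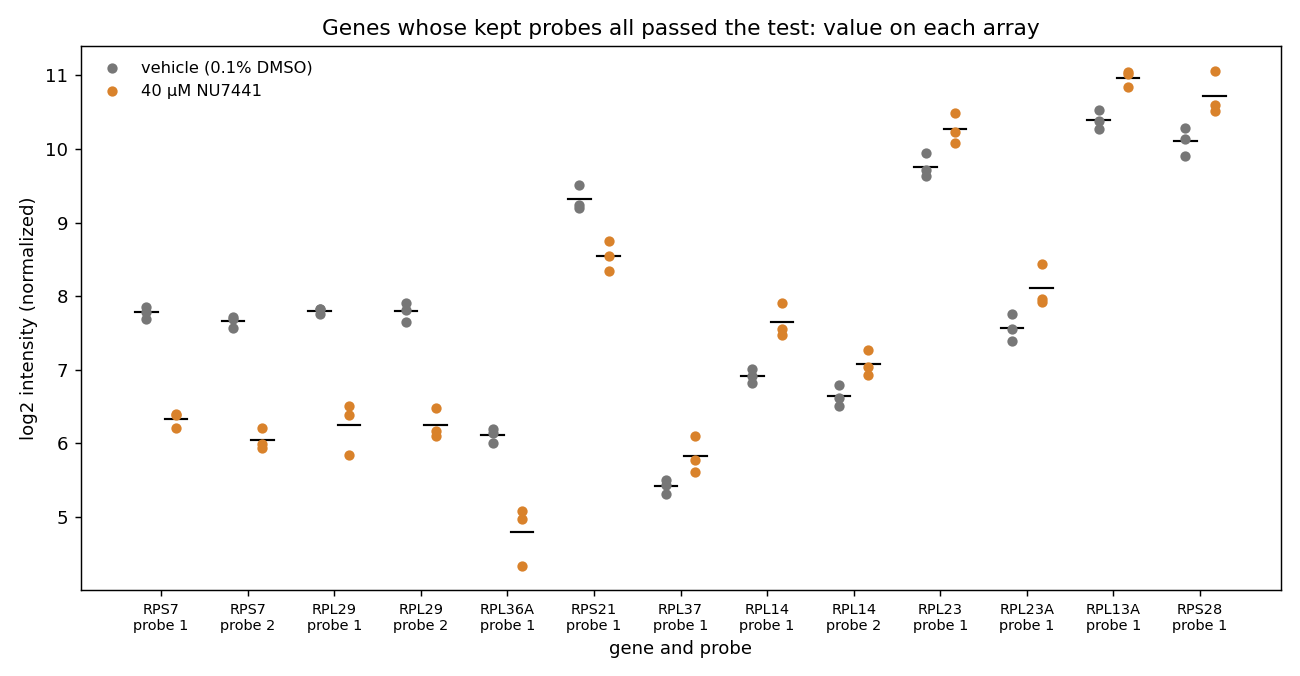
Normalized log2 intensity on each array for the 13 probes of the 10 ribosomal protein genes whose kept probes all passed the test, with vehicle arrays in grey, NU7441 arrays in orange and a black line at each group's mean (n = 3). The groups do not overlap in any of the 13 probes, which were chosen by their calls, nor in 47.1% of all kept probes. The falls of RPS7, RPL29 and RPL36A are larger than the rises, and the RPL36A probe was kept only through the vehicle arrays.

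In 13 of the 29 genes with several kept probes, the probes did not share a call. The share of such genes was not counted over all genes. In 12 of these the brightest probe was not called and a dimmer one was, the exception being RPL34, whose brighter probe fell by 0.63 (SE 0.13, adjusted p = 0.0026) while the other stood at -0.09. RPS24, a small subunit protein and Diamond-Blackfan gene with alternatively spliced 3′ ends, showed it plainly. Its bright probe read 11.98, 11.75 and 11.91 with vehicle and 11.79, 11.92 and 11.89 with NU7441. Its dimmer probe, annotated to another transcript of the gene, read 9.28, 9.13 and 9.22 with vehicle and 7.88, 7.79 and 7.79 with NU7441, a change of -1.39 ± 0.11 (SE, adjusted p = 9.57e-07).

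RPS29, a zinc-binding protein of the small subunit, held the largest rise. Of its 4 probes the dimmest read 7.09, 7.05 and 6.96 with vehicle and 8.82, 8.54 and 8.65 with NU7441, a rise of 1.64 ± 0.12 (SE, adjusted p = 4.39e-07). The other 3 probes of RPS29 stood at -0.03, -0.07 and -0.12, none of them called. The rising probe and the one at -0.12 were annotated to the same transcript, so the annotated transcript alone does not separate the probe that rose from those that did not pass.

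RPL6, a large subunit protein, had bright probes at -0.18 and -0.07 and a dim probe at -1.55 ± 0.15 (SE, adjusted p = 4.61e-06), all annotated to 1 transcript. The dim probe read 7.78, 8.07 and 7.83 with vehicle and 6.41, 6.60 and 6.03 with NU7441. RPS15, a protein near the decoding site of the small subunit, had bright probes at 0.13 and -0.13 and a dim one at -1.16 ± 0.15 (SE, adjusted p = 6.85e-05). RPL36 had a bright probe at 0.23, not called, and a dim one at -0.87 ± 0.15 (SE, adjusted p = 0.000586).

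RPL9 held called probes of opposite direction. Its brightest probe stood at 0.05, the next rose by 0.62 ± 0.18 (SE, adjusted p = 0.0159) and the dimmest fell by 0.58 (SE 0.12, adjusted p = 0.002). With 75th percentile scaling over all probes the rise was lost, as it was when undetected probes were tested too or vehicle replicate 3 was left out. RPLP1, an acidic protein of the stalk that recruits elongation factors, had its probes all above 0, with the dimmest at 0.97 ± 0.17 (SE, adjusted p = 0.000767), the middle one at 0.31 ± 0.11 (SE, adjusted p = 0.0355) and the brightest at 0.12, not called. The call of the middle probe was lost when any 1 of the vehicle arrays, NU7441 replicate 2 or NU7441 replicate 3 was left out, and with the replicate number as a block. RPS27 had a dim probe at 0.58 beside bright ones at 0.06 and 0.10. In RPL13, RPL41, RPL8 and RPS26 the dimmer probe fell, at -0.43, -0.39, -0.56 and -0.54, and the brighter one, at 0.20, -0.09, 0.10 and 0.05, was not called. The RPL41 and RPS26 probes that fell were close to background, and without background correction they stood at -0.11 and -0.18. The RPL13 call was lost without vehicle replicate 2 or 3 or NU7441 replicate 3, and with no detection filter. The RPL41 call was lost without vehicle replicate 1 or NU7441 replicate 2, without background correction, in the submitters' table and with 75th percentile scaling over detected probes.

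Whether 2 probes of a gene responded differently was tested directly, a test added after the data were seen. For every gene with several kept probes, the log2 difference between the brightest and each dimmer probe was compared between the groups with limma and adjusted over all 2648 pairs. The response differed in 8 of the 41 ribosomal protein pairs and in 4.53% of all pairs. The 8 pairs belonged to RPS29, RPS24, RPL6, RPS15, RPL36, RPLP1, RPL9 and RPL13. The pairs of the first 5 genes passed under every alternative that tested pairs. The RPL13 pair did not pass with either 75th percentile scaling, cyclic loess, an intensity trend, or 1 array left out, except NU7441 replicate 2. The RPLP1 pair did not pass with either 75th percentile scaling, cyclic loess, or without vehicle replicate 2 or NU7441 replicate 3, and the RPL9 pair without any 1 of the vehicle arrays or NU7441 replicate 2. In RPS24 the bright probe's change exceeded the dim probe's by 1.38 ± 0.15 (SE, limma adjusted p = 9.13e-05), and in RPS29 the difference was -1.67 (SE 0.16, limma adjusted p = 2.65e-05). In RPL8, RPS26, RPL34, RPS27 and RPL41 the pairs did not pass (limma adjusted p = 0.0597, 0.0787, 0.0925, 0.0916 and 0.35), so a called and an uncalled probe there are not shown to differ in the fit used here. The RPL8 pair passed with the replicate block (limma adjusted p = 0.0279), array weights, cyclic loess, both 75th percentile scalings and without NU7441 replicate 1. Without background correction and in the submitters' table the RPL34 and RPS27 pairs passed, as did the RPL34 pair without vehicle replicate 3 and the RPS26 pair without NU7441 replicate 1. Of the 8 pairs, 5 were among the 29 pairs of probes annotated to the same transcript. The other 3 were among the 12 pairs annotated to different transcripts. The pairs of RPL29, RPS7 and RPL14 differed by -0.01, 0.16 and 0.29 and did not pass.

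**Figure D2:**
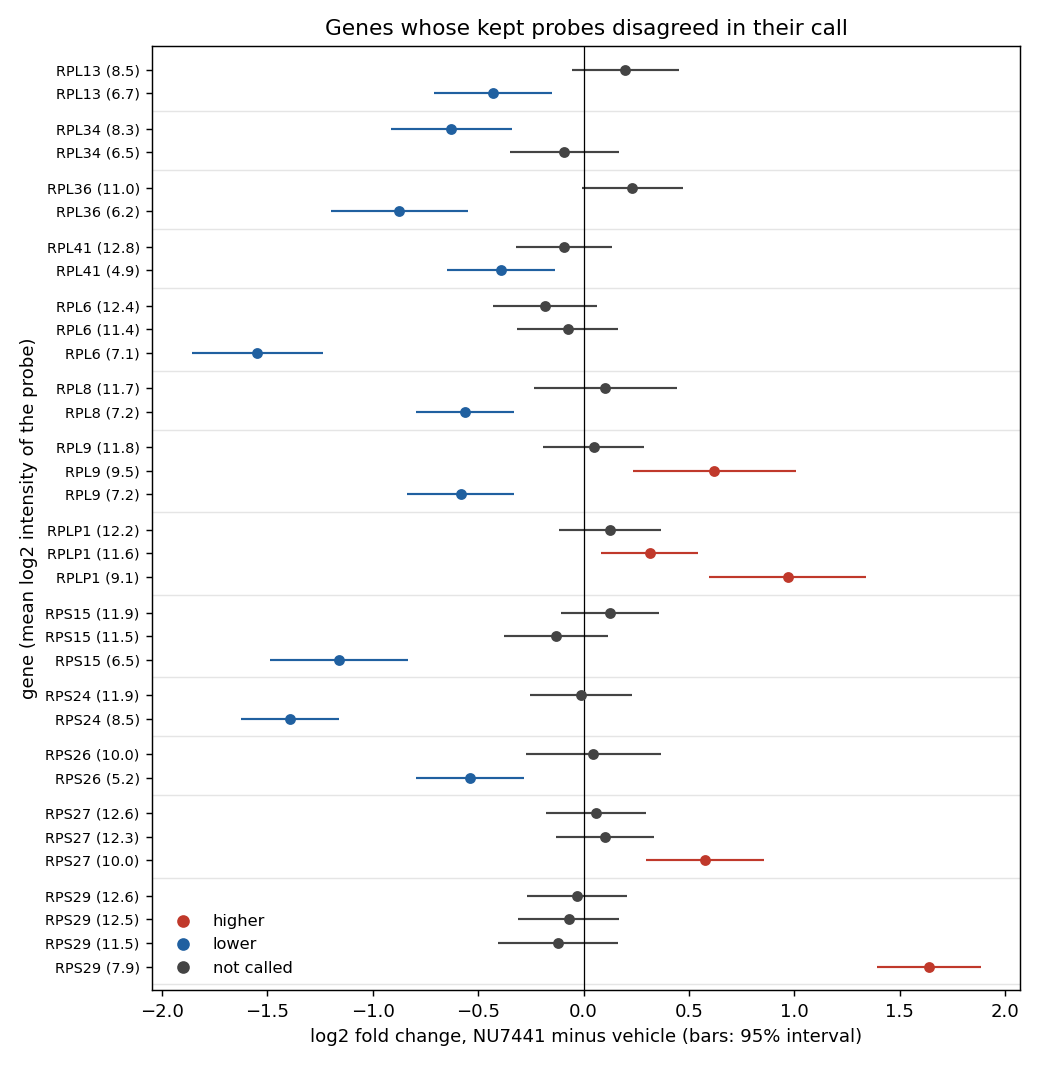
Log2 fold change with its 95% interval for each kept probe of the 13 genes whose probes did not share a call, ordered within a gene from the brightest to the dimmest probe, with the mean log2 intensity in brackets. Most bright probes lie near 0, and the dimmest probe of RPS29 stands highest at 1.64 and that of RPL6 lowest at -1.55.

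Across the members, calls moved with the brightness of the probe, which depends on the probe as well as on the transcript. Bands were set after the values were seen. Of 57 member probes with a mean log2 intensity of 11 or more, 1 was called, the middle probe of RPLP1, or 1.75%, where 13.7% of all kept probes in that band were. That count was 10 of 59 without background correction and 9 of 60 in the submitters' table. It was 5 of 57 with an intensity trend and 4 of 59 with cyclic loess, and the RPLP1 call was lost with the replicate block. The share of all kept probes in the band was not counted under these alternatives. Of 26 members from 8 to below 11, 6 were higher and 3 lower, or 34.6%, beside 43.3% of all. Of 24 members below 8, 5 were higher and 13 lower, or 75%, beside 33.3% of all. The medians of the members in the 3 bands, from bright to dim, were -0.03, 0.16 and -0.41, and those of all kept probes -0.02, 0.00 and 0.01.

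RPL5, in the middle band, and RPL11, in the bright one, which carry the 5S ribosomal RNA into the large subunit and can bind MDM2, stood at -0.03 for the RPL5 probe and at -0.06 and -0.26 for the RPL11 probes, none called. The 5 brightest member probes were those of RPL41, RPS29, RPLP2, RPS12 and RPS27, at -0.09, -0.03, -0.10, 0.12 and 0.06. For 54 of the 56 uncalled probes in the bright band, the 95% interval of the change lay within 0.5 log2 units of 0. The intervals of the others, of RPL11 and RPL37A, reached -0.52 and 0.58. The brightest deposited member signal was 7591, and the brightest signal of any probe was between 7365 and 8844 on the 6 arrays. Whether bright beads were near the top of the reading range was not tested.

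The level of the members also depended on the scaling. With arrays scaled to the 75th percentile of the probes detected on all 6 arrays, an alternative added after the data were seen, the median change of all kept probes moved by 0.11 to 0.11 and that of the members to 0.19. Under it 31 of the 107 member probes were higher and 15 lower, beside 3688 higher and 1911 lower of all 14973 kept probes. In the bright band 15 of the 57 members were called, and the share of all kept probes in that band was not counted under this scaling. The share of all called probes that were higher was 48.9% with quantile normalization, 65.9% under this scaling and 36.5% when the percentile was taken over all probes. Relative to the median of all probes, the median of the members thus stood 0.04 lower with quantile normalization and 0.08 higher with the 75th percentile of detected probes. It was also higher with the 75th percentile of all probes (0.04 beside -0.04) and with cyclic loess (0.05 beside 0.003). It was lower without background correction and in the submitters' table (-0.03 beside 0.003 in each).

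**Figure D3:**
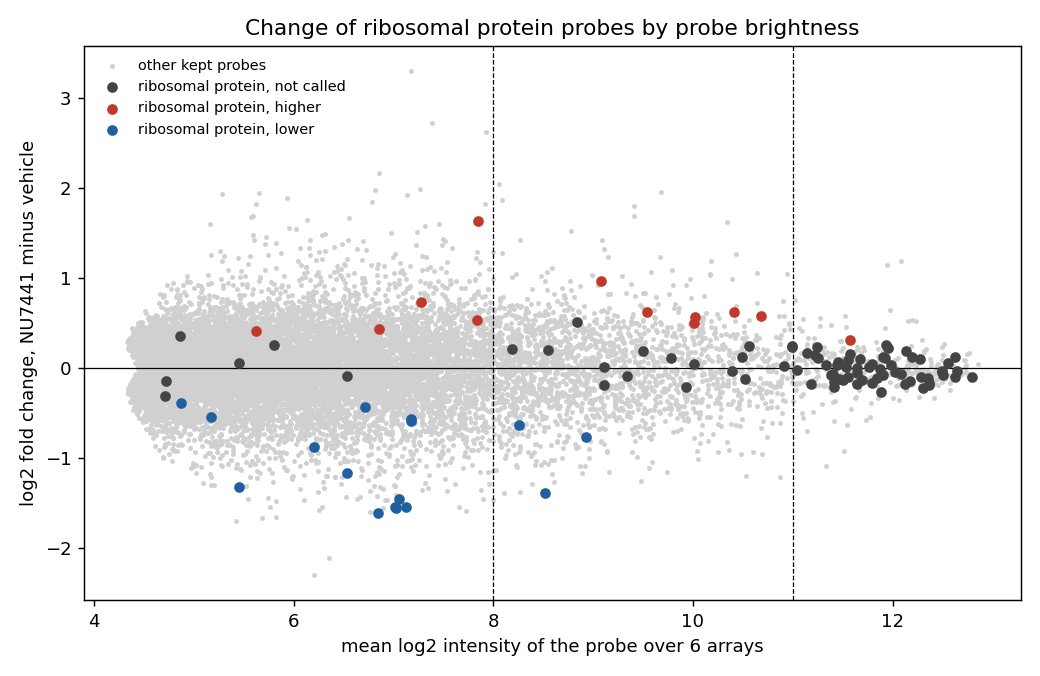
Log2 fold change of each kept probe against its mean log2 intensity over 6 arrays, with ribosomal protein probes as large points (red higher, blue lower, dark grey not called), other kept probes in light grey and dashed lines at 8 and 11. Of the 57 members to the right of 11, 1 is called, and the 8 falls of at least 2-fold lie below 9.

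NU7441 replicate 3 was often the most extreme treated array among the called members. It was the highest of the NU7441 arrays in 10 of the 12 higher probes and the lowest in 13 of the 16 lower ones. A rank holds no size: the RPS24 probe that fell read 7.79 on both NU7441 replicates 2 and 3. The ranks were not counted over all kept probes, so whether they are particular to the members was not tested. Without NU7441 replicate 3, 11 members were higher and 15 lower.

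Genes around the ribosomal proteins were taken from lists, which were chosen with earlier results of these data known. The chaperones and importins that escort ribosomal proteins were lower in 13 of 21 kept probes and higher in 1, or 61.9% and 4.76% beside 17.5% and 16.7% of all kept probes, with a median of -0.58, and the falls came from 10 of 14 genes. RRS1 and RPF2, which help seat the 5S particle in the large subunit, were at -1.15 ± 0.12 (SE, adjusted p = 9.21e-06) and -1.03 ± 0.11 (SE, adjusted p = 1.01e-05). BCCIP, a partner of RPL23, had 3 called probes, of which the lowest stood at -0.92 ± 0.11 (SE, adjusted p = 3.83e-05), and LTV1, a small subunit assembly factor, was at -0.81 ± 0.12 (SE, adjusted p = 0.000151). The chaperone gene HEATR3 had called probes of opposite sign, at -0.47 and 0.40, both near background. The probe at 0.40, the 1 higher probe of this list, was detected on 0 vehicle arrays and 3 NU7441 arrays. It was thus kept only through the group where it is higher, and its rise is not counted as support. The same holds for a TNPO1 probe among the 13 lower ones, at -0.65, which was detected on 3 vehicle and 2 NU7441 arrays. Its fall is not counted as support either, and the other kept probes of TNPO1 stood at -0.58, called, and -0.04, not called.

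Of the other genes whose messages carry the TOP tract, 6 probes were higher and 5 lower of 35, in 18 of 20 genes, or 31.4% called beside 34.2% of all kept probes, with a median of -0.02. PABPC1, the poly(A)-binding protein, had a probe at 0.93 ± 0.22 (SE, adjusted p = 0.00514) and a brighter one at 0.08, and EEF1A1, the elongation factor that delivers transfer RNA, a dim probe at 0.53 and 3 bright ones between 0.04 and 0.17. HNRNPA1, a splicing factor, had both its probes lower, at -1.02 ± 0.12 (SE, adjusted p = 2.26e-05) and -0.52 ± 0.17 (SE, adjusted p = 0.0316), the latter with overlapping arrays. That second call was lost without vehicle replicate 2 or 3 or NU7441 replicate 2 or 3, without background correction, in the submitters' table, with 75th percentile scaling over detected probes and with no detection filter. The PABPC1 call was lost with no detection filter.

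Ribosomal proteins that the symbol rule leaves out had 8 kept probes in 5 of 11 genes, of which 12.5% were called, beside 34.2% of all. RPL26L1, a near copy of RPL26, was the gene with a called probe, at -0.70 ± 0.14 (SE, adjusted p = 0.00163), and its brighter probe stood at -0.05. RPS4X was at 0.19 and 0.05, and FAU, which encodes a ubiquitin-like fusion of RPS30, at -0.20. Of the regulators of ribosomal protein translation, 1 probe of TIA1 was higher and 1 of CNBP lower among 19 in 11 of 13 genes, or 10.5% called beside 34.2% of all, at 0.48 and -0.36, with MTOR at 0.20 and not called. The CNBP call was lost without vehicle replicate 1 or 2 or NU7441 replicate 1 or 3, or when undetected probes were tested too, and its other probe stood at 0.14. Probes named for ribosomal protein pseudogenes, looked at after the values were seen, had 5 higher and 0 lower by limma (0 lower also at an unadjusted p below 0.05) among 18 kept, beside 16.7% higher and 17.5% lower of all kept probes, of RPL13A, RPL13 and RPL23A copies, between 0.36 and 0.57. The arrays of the RPL23AP87 probe overlapped between the groups. Other kept probes of RPL13A copies (RPL13AP20, RPL13AP3, RPL13AP5) and of RPL23A copies (RPL23AP53, RPL23AP7) were not called.

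**Figure D4:**
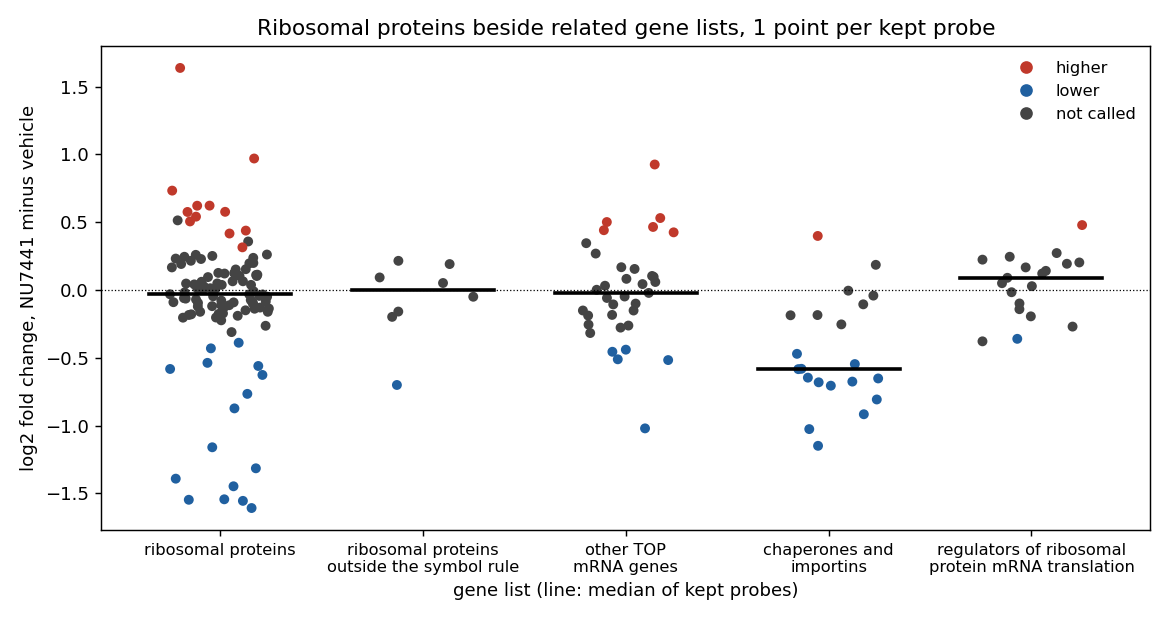
Log2 fold change of each kept probe for the ribosomal proteins and 4 related gene lists, with red for higher, blue for lower, dark grey for not called and a line at each list's median. The chaperones and importins have their median at -0.58, and the other 4 groups have theirs between -0.03 and 0.09.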

How the data were processed

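The members and lists were chosen with earlier results of these data known. Per the labels' protocols, RNA was purified by kit and amplified to biotin-labelled cRNA. The submitters' processing notes name GenomeStudio, R 3.0.2 and lumi. How they were applied is not given in the sources used here. One deposited file holds each probe's linear intensity before normalization and, per the file headers, its detection p-value on every array. The other holds the authors' log2 values of the same arrays, with a median of 6.22 in each column and no more than 0.061 from the quantile normalized log2 signals, so their scale is log2 and not centred. They served as an alternative.

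Intensities were background corrected by normexp (negative controls inferred from detection p-values, offset 16), then quantile normalized and log2 transformed with limma 3.58.1 in R 4.3.3. The offset shrinks changes of dim probes. It was also added in the setting without background correction. Of 47323 probes, 14973 were kept and fitted with lmFit and eBayes, group as the only term, with a Benjamini-Hochberg threshold of 0.05. Probes, not genes, were the unit. Names came from GEO's platform annotation: 30112 probes had 1 symbol, 8 several and 17203 none. The text names RPL29, RPS7, every gene with a called probe, the 5 brightest member probes and up to 4 called probes of each related list, beside members named after their values were seen. The procedure was tested on simulated data. Slide and scan date are not in the files used here, so neither was tested. Plots used matplotlib 3.10.9 under Python 3.11.15.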

Additional observations from a re-analysis of the deposited data

How the results depend on the processing

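The 12 higher and 16 lower ribosomal protein probes kept counts within 1.5 times under the other settings apart from those named here. With no detection filter 6 were higher, with an adjusted p below 0.01 asked for 7 were higher, and with the 75th percentile of detected probes 31 were higher. With the brightest probe per gene 6 genes were higher and 5 lower. Over all kept probes, 2502 higher and 2618 lower, the stricter threshold left 1383 and 1637. The 8 probe pairs that differed became 5 at that threshold. Leaving out 1 array gave 8 to 13 higher and 15 to 16 lower member probes, 5 to 9 differing pairs, of which 5 without vehicle replicate 2, and 1772 to 2540 higher and 1996 to 2561 lower of all probes. The replicate numbers did not pair the arrays: the correlations of same-numbered deviations were -0.113, 0.046 and -0.0661. With the replicate block 13 members were higher and 16 lower, and 9 pairs differed. Both probes of RPL29 and RPS7, the brighter RPL14 probe, the RPS24 probe that fell and the RPS29 probe that rose kept their direction and call under every setting that tested them. No called named probe changed sign; some uncalled ones did, such as the brighter probe of RPL8 (-0.06 to 0.36) and the RPLP2 probe (-0.19 to 0.18). The cause of these differences was not tested, beyond the fewer genes or the stricter threshold that some settings hold by construction. Slide as a block was not run, since slide is not recorded in the files used here. Dim probes lie close to the background, which limits their fold changes.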
